A study of Mus musculus with 2 samples.

Results

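C1q macrophages of the lung with little Spp1, Arg1 or Gpnmb were examined cell by cell in single-cell RNA-seq of CD45+ lung cells, and 283 of the 8451 cells that passed the filters met the definition. The members were chosen by these measured levels. A cell was a member when C1qa, C1qb, C1qc and Ms4a7 together (below, the C1q score) made up 0.1% or more of its UMIs, were no fewer than the UMIs of the alveolar macrophage genes Plet1, Car4, Atp6v0d2, Marco, Ear1, Krt79 and Siglecf, and came with under 0.1% of UMIs from Spp1, Arg1 and Gpnmb and under 4 UMIs of Mki67, Top2a, Birc5 and Ube2c. A UMI is a tag that marks 1 captured RNA molecule. Barcodes with fewer than 200 genes, or with over 15% of their UMIs from mitochondrial genes, had been set aside.

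The 2 libraries came from C57BL/6N mice, and the labels name no transgene. The BLM library held CD45+ cells, that is, cells with the pan-leukocyte surface antigen, from lungs taken on day 15 after bleomycin, a drug given into the airway to injure the lung and start fibrosis, and the naive library held the same sort from untreated mice. Per the study's methods bleomycin was given at 50 µg to mice aged 10 to 16 weeks, and each library pooled 3 mice. Each group was 1 library, so that condition and library cannot be told apart, no test across samples was possible, and every interval given in brackets is an exact 95% interval that covers counting error only.

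Macrophages of the lung tissue outside the airspaces are called interstitial macrophages. C1q, whose chains are encoded by C1qa, C1qb and C1qc, starts the classical complement pathway and binds dying cells. In mouse lung, interstitial macrophages are commonly divided into cells near vessels that carry the hyaluronan receptor Lyve1, the folate receptor Folr2, the haemoglobin scavenger receptor Cd163 and the phosphatidylserine receptor Timd4, and cells near nerves and airways with much MHC class II, which shows antigen to CD4 T cells. Circulating monocytes with the chemokine receptor Ccr2 can also give rise to tissue macrophages. The sorted cells carry no information on their place in the tissue.

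In the BLM library 190 of 4526 cells (4.20% [3.63, 4.82]) were members, and in the naive library 93 of 3925 (2.37% [1.92, 2.89]). The order of these shares rested on cells with a low C1q score: at a C1q score of 0.5% or more, the shares were 1.72% in BLM and 1.83% in naive. The limit on Spp1, Arg1 and Gpnmb had set aside 307 BLM cells and 1 naive cell, and the limit on cell cycle genes 42 and 5. Just inside the C1q limit (0.1 to 0.12%) lay 20 BLM and 2 naive cells, and just outside (0.08 to 0.1%) 46 and 11. Just under the Spp1, Arg1 and Gpnmb limit (0.08 to 0.1%) lay 7 BLM cells and no naive cell, and just above it (0.1 to 0.12%) 16 BLM cells and no naive cell. Members held a median of 6968.5 UMIs in BLM and 5257 in naive.

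The genes of the definition are given as description only. C1qa was at 1461 CPM (the UMIs of a gene, summed over the members, for every 1000000 UMIs of those cells) in BLM members and 2023 in naive members, C1qb at 1847 and 2565, C1qc at 1693 and 2574, and Ms4a7, a tetraspan membrane protein of macrophages, at 324 and 385. C1qb, C1qc and C1qa lie side by side on chromosome 4 (chr4:136880126-136886200, chr4:136889801-136892936 and chr4:136895916-136898844 in GRCm38). Spp1, which encodes the matrix protein osteopontin, had a UMI in 51.1% of BLM members and 5.38% of naive members at 174 and 13.2 CPM. B cells, which should lack it and hold fewer UMIs (a median of 1789 in BLM), held Spp1 in 17.6% of cells in BLM and 0.903% in naive. With each cell thinned to 1000 UMIs, the shares in BLM were 13.9% of members and 7.56% of B cells. The part of free RNA in the Spp1 of members was not tested.

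Macrophage genes outside the definition were also counted. Of the BLM members 177 of 190, and of the naive members 92 of 93, held 3 or more UMIs of the core macrophage list, which includes Adgre1 (F4/80), Csf1r, Mertk and Fcgr1. At 10 or more UMIs the numbers were 167 and 92. The list summed to 28998 CPM in BLM and 22971 in naive members, against 1461 and 1902 CPM in B cells. A count of 3 UMIs is thus a low bar and does not by itself check the label. Csf1r, the receptor for the macrophage growth factor CSF1, had a UMI in 84.2% of BLM and 93.5% of naive members. Apoe, a lipid carrier, had a UMI in 76.3% and 73.1% of them, against 29.1% and 19.7% of B cells. Of the members, 11 in BLM and 4 in naive also had 3 or more UMIs of a set of B cell genes, among them Cd79a, Cd79b and Ms4a1, without a UMI of Cd3d, Cd3e or Cd3g. Summed over the members, the 6 listed B cell genes were at 94.7 CPM in BLM and 172 in naive against 5032 and 5895 in B cells, the 6 T cell genes at 36.6 and 151, the 6 NK cell genes at 47.3 and 62.2, the 6 neutrophil genes at 591 and 990, the 8 dendritic cell genes at 156 and 511, and the 8 stromal genes at 73.2 and 119. All of these genes had a UMI in both libraries, except Sftpc in BLM and Xcr1 in naive. Over all 5 basophil and mast cell genes there were 1 and 3 UMIs. In total, 30 BLM and 24 naive members held 3 or more UMIs of the B cell, T cell, NK cell or stromal list or over 10 of the neutrophil list. The dendritic cell list does not enter that total, and 14 BLM and 19 naive members held 3 or more of its UMIs. Nor do the lists of the nearest cell types enter it. Of the classical monocyte list 164 BLM and 69 naive members held 3 or more UMIs (7750 and 3170 CPM, against 2324 and 3163 in B cells). Of the alveolar macrophage list outside the definition 99 and 50 did (1526 and 1343 CPM, against 144 and 197 in B cells).

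Within the BLM library the members were of several kinds. The C1q score was 0.1 to 0.3% in 77 of 190 BLM members and 0.5% or more in 78, whereas in naive 10 of 93 lay in the lower band and 72 in the upper. BLM members of the lower band had Adgre1 at 111 CPM against 857 in the upper band, Apoe at 644 against 5196, and Ccr2 at 1398 against 489. A C1q score in the lower band could rest on few molecules, and 33 BLM and 2 naive members held at most 3 UMIs of the 4 genes. The mannose receptor Mrc1 was at 675 CPM in the lower and 1906 in the upper band. The name interstitial macrophage thus matched the upper band by its markers, while the lower band of BLM members is called here by the rule only.

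A division by Lyve1, Folr2, Cd163 and Timd4 showed the same spread. Members with 2 or more UMIs of these 4 genes are called marker-positive and those with none marker-negative. In BLM 45 of 190 members (23.7% [17.8, 30.4]) were marker-positive, 8 had 1 UMI and 137 none, and in naive 59 of 93 (63.4% [52.8, 73.2]) were marker-positive, 7 had 1 UMI and 27 none. The intervals did not overlap. With each cell thinned to 1000 UMIs the shares were 15.2% and 44.6%. Among members with a C1q score of 0.5% or more the shares were 55.1% and 70.8%, so that most of the gap between the libraries went with the low-score cells of BLM. In B cells the count was reached by 0 of 592 BLM cells, so that a share up to 0.507% is allowed, and by 2 of 775 naive cells. Counted as cells, 45 marker-positive members were found among 4526 BLM cells and 59 among 3925 naive cells.

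The 4 genes were not found in the same cells to the same extent. Folr2 had a UMI in 84.4% of the 45 marker-positive BLM members and 88.1% of the 59 naive ones, Cd163 in 66.7% and 72.9%, Lyve1 in 48.9% and 67.8%, and Timd4 in 26.7% and 39%. These cells were chosen by the same 4 genes, so their shares here are description only. Over all members Folr2 had a UMI in 21.6% [16, 28.1] of BLM and 60.2% [49.5, 70.2] of naive members. Cd163 had a UMI in 17.4% and 48.4%, Lyve1 in 12.6% and 43%, and Timd4 in 6.32% and 25.8%.

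**Figure D1:**
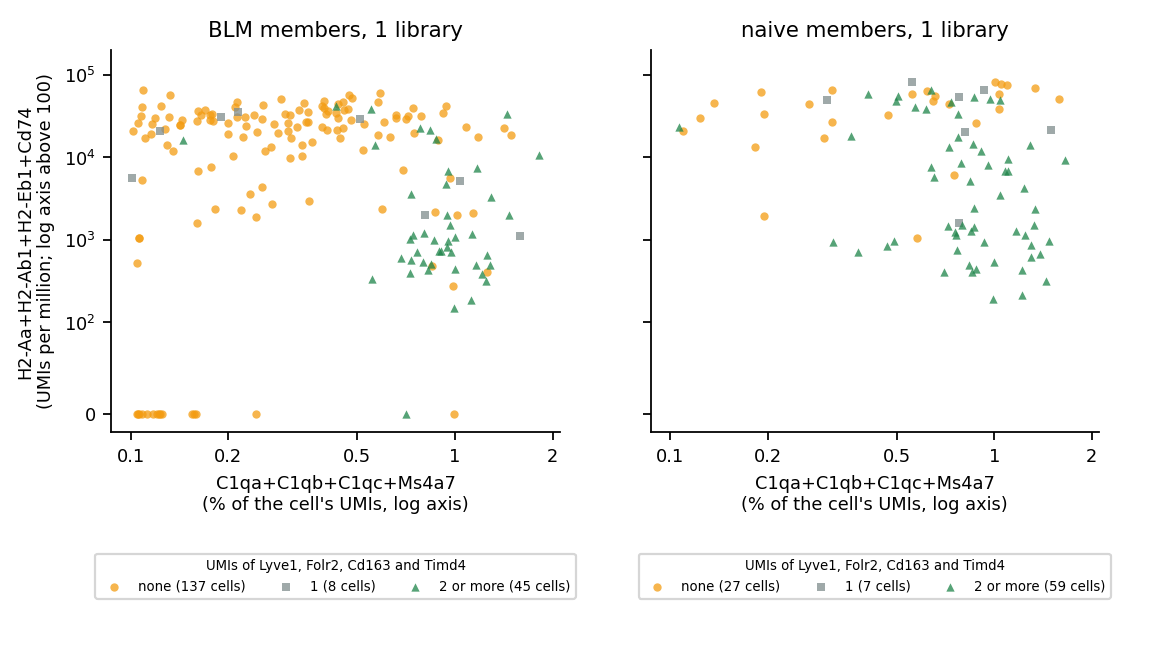
Each point is 1 member, with the C1q score in percent of the cell's UMIs on a log axis against the summed level of the MHC class II genes H2-Aa, H2-Ab1, H2-Eb1 and Cd74 in CPM (linear to 100, log above), for BLM (left, 190 cells) and naive (right, 93 cells). Marker-positive members (triangles, 45 and 59 cells) lie mostly at a high C1q score, and the 137 marker-negative BLM members (circles) reach down to the limit of 0.1%.

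MHC class II marked the other side of the division. Across the 190 BLM members the summed CPM of the 4 marker genes had a Spearman rho of -0.41 with the summed CPM of H2-Aa, H2-Ab1, H2-Eb1 and Cd74, and across the 93 naive members of -0.62. Ccr2 had a rho of -0.38 and -0.33 with the marker genes and of 0.52 and 0.47 with MHC class II. These are descriptions over cells of 1 library each, which share depth and preparation. H2-Ab1, a chain of MHC class II, was at 1460 CPM in marker-positive and 6722 CPM in marker-negative BLM members (log2 ratio -2.20 [-2.33, -2.08]), and at 3592 and 11032 CPM in naive (-1.62 [-1.73, -1.51]). B cells also held much H2-Ab1 (4036 and 4364 CPM).

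Genes that were not used for the division also followed it in both libraries. In BLM 557 of 6264 ranked genes were 2-fold or more higher in marker-positive than in marker-negative members (8.89%) and 573 lower (9.15%), and in naive 478 of 3844 higher (12.4%) and 264 lower (6.87%). To be ranked, a gene outside the definition needed 20 UMIs over the compared cells and had to be seen in at least 10% of cells on its higher side. Of the 12 genes of the list of Lyve1-type macrophages other than the 4 marker genes, 11 were 2-fold or more higher in marker-positive members in BLM and 12 in naive. Selenop, which encodes a secreted selenium carrier, was at 13402 against 1029 CPM in BLM and 10128 against 1604 CPM in naive. F13a1, the A chain of coagulation factor XIII, was at 2749 against 98.4 CPM and 2461 against 292 CPM. Gas6, a bridge between dying cells and the receptor Mertk, had 210 UMIs in the marker-positive and 9 in the marker-negative BLM members, and 143 and 0 in the naive ones.

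The genes that stood highest in marker-positive over marker-negative BLM members were Ccl8, Cd209f, C6, Pla2g2d, Ccl7 and Cbr2. The C-type lectin Cd209f had 141 UMIs in 10 marker-positive BLM cells and none in the marker-negative ones, which, with 3 UMIs put in place of 0 for the summed cells, is a gap of at least 109-fold. Of the 72 UMIs of the phospholipase Pla2g2d, 60 came from 1 cell. At the other end stood Klrb1b, Ccl17, Dcstamp, Ear2, AA467197 and Hp. Ccl17, a chemokine for CCR4-bearing T cells, had 13 UMIs in the 45 and 324 in the 137 cells. In naive the leading genes were Ccl12, Hbegf, C4b, Fcna, Gas6 and Ednrb, and the genes at the other end were Mmp12, Cd209a, Itgax, Cxcl13, Flrt3 and Nes. Hbegf, an EGF-family growth factor, had 159 UMIs in the 59 marker-positive and none in the 27 marker-negative naive members (a gap of at least 23.4-fold by the same bound).

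Whether members of the injured lung differed from those of the untreated lung was asked first over all members. Of 6515 ranked genes 383 were 2-fold or more higher in BLM (5.88%) and 552 lower (8.47%). With the TMM factors of edgeR, which put the centre of the log2 ratios at -0.17 before it was subtracted, the counts were 546 higher and 344 lower, so the balance of higher and lower genes depended on the scaling. Without the members that carried genes of other lineages, 579 genes were higher. The 10 genes that ranked highest in BLM were Ccl8, Clec4n, Rnase2a, Nrg1, Inhba, F7, Pdpn, AA467197, Dcstamp and Rnf128, and the 10 lowest included Aqp1, Mamdc2, Inmt, Cavin1, Fxyd2, Nes, Siglech, Cd36 and Tppp3.

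Clec4n (dectin-2), a C-type lectin that binds fungal mannans, had 1250 UMIs in 136 of 190 BLM members and 33 in 22 of 93 naive members (896 against 62.2 CPM, log2 ratio 3.85 [3.35, 4.39]). The difference was present on both sides of the division, with a ratio of 2.98 [2.34, 3.69] in marker-positive and 4.27 [3.29, 5.49] in marker-negative members. Clec4n was at 39.1 CPM in BLM and 16 CPM in naive B cells, and at 1428 and 690 CPM in alveolar macrophages.

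Rnase2a, Nrg1 and Inhba had no UMI in naive members. Nrg1, which encodes the growth factor neuregulin, had 67 UMIs in 29 BLM members and was at least 8.49-fold higher, and Inhba, the activin A chain, had 66 UMIs in 24 members and was at least 8.37-fold higher. The eosinophil-type ribonuclease Rnase2a had 91 UMIs in 22 members, 37 of them in 1 cell (at least 11.5-fold). Coagulation factor VII (F7) had 216 UMIs in 58 BLM members and 7 in 5 naive members, and podoplanin (Pdpn) 223 in 49 and 8 in 4. Marker-negative members held 56 of the 67 UMIs of Nrg1 and 183 of the 216 of F7, but 27 of the 91 of Rnase2a.

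Cd36, a receptor for oxidised lipids and thrombospondin, was lower in BLM over all members and on both sides of the division. It had 330 UMIs in 57 of 190 BLM members and 601 in 79 of 93 naive members (237 against 1133 CPM, log2 ratio -2.26 [-2.46, -2.06]). The ratio was -1.75 [-2.02, -1.49] in marker-positive and -2.20 [-2.54, -1.86] in marker-negative members. In alveolar macrophages Cd36 was at 97.9 CPM in BLM and 602 in naive. The water channel Aqp1 had 3 UMIs in BLM members and 47 in 10 naive members, 22 of them in 1 cell, and all 47 lay in marker-positive members. Siglech had 12 UMIs in 6 BLM members and 40 in 16 naive members, and the 16 naive cells were all marker-positive.

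**Figure D2:**
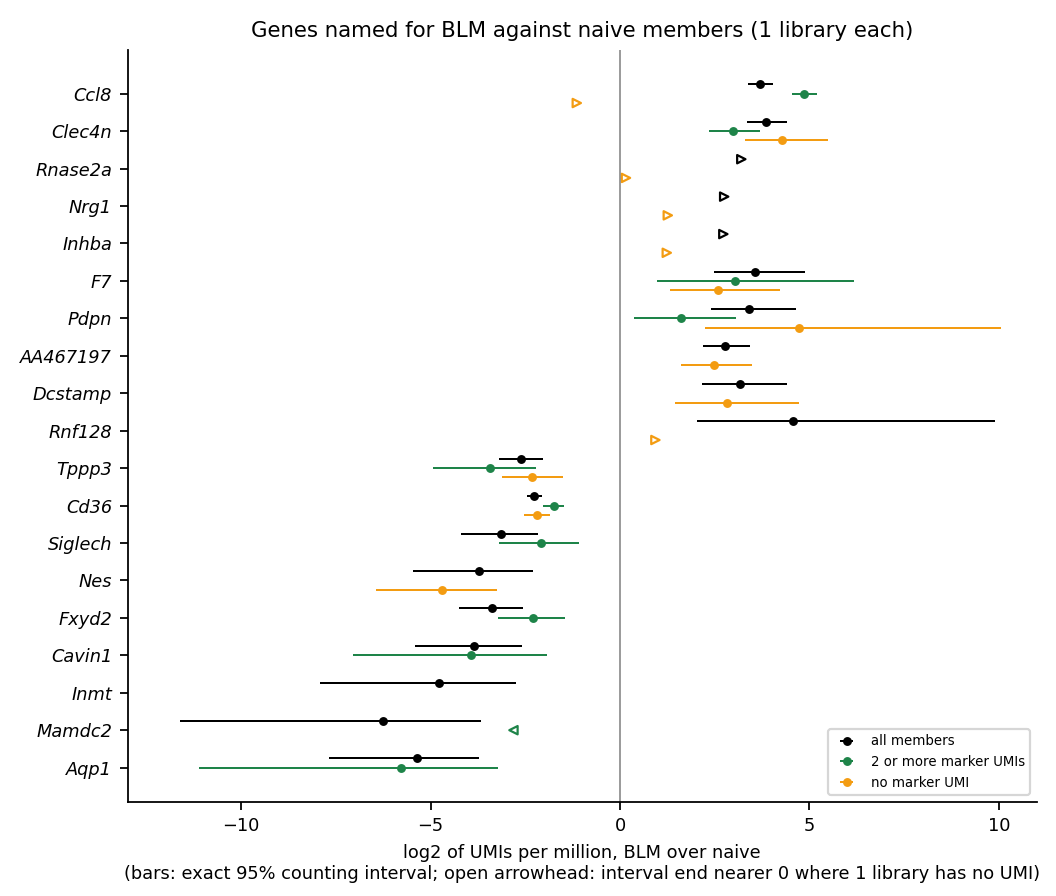
Log2 ratio of CPM, BLM over naive, for 19 of the 20 genes named by rank, with bars for the exact 95% counting interval, over all members (black), marker-positive members (green) and marker-negative members (orange), where the gene had enough UMIs. Open arrowheads give the end of the interval nearer 0 where 1 library had no UMI. Clec4n lies right of 0 and Cd36 left of 0 in all 3 sets, whereas the arrowhead of Ccl8 in marker-negative members starts left of 0 and gives no direction.

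The list of Lyve1-type macrophages was lower in part over all members. Of its 12 genes other than the 4 that set the division, 4 were 2-fold or more lower in BLM (Cbr2, Ltc4s, Maf and Pf4) and none higher, with a median log2 ratio of -0.83 against -0.05 over all ranked genes. Of the 4 marker genes Folr2, Lyve1 and Timd4 were also 2-fold or more lower. With the 25 BLM and 24 naive members left out that held 3 or more UMIs of the B cell or the dendritic cell list, 8 of the 12 were lower. Within marker-positive members none of the 12 was 2-fold apart in either direction, with a median of 0.16. Igf1, an insulin-like growth factor, was at 0.82 [0.53, 1.12] there. With the carriers of B cell or dendritic cell UMIs left out as above, 1 of the 12 (Ccl24) was 2-fold or more lower in marker-positive members. The median was then -0.06. Since the marker genes choose the marker-positive members, their own levels in that set give no check. The 12 other genes went with the marker genes in both libraries, so their like levels in that set can follow from the same choice. The comparisons that follow are given within the marker-positive and marker-negative members, a step added after the data had been seen.

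In the 45 BLM and 59 naive marker-positive members, 226 of 4889 ranked genes were 2-fold or more higher in BLM (4.62%) and 332 lower (6.79%). The 6 that ranked highest were Ccl8, Cxcl13, C6, Mmp12, Clec4n and Il18bp. The 6 lowest were Aqp1, Mamdc2, Apold1, Mmp9, Tppp3 and Cavin1. The summed level of the 8 stromal genes was also lower in these members (45.1 against 141 CPM), with Mgp the only one of them that reached 20 UMIs, as was that of the 6 neutrophil genes (211 against 1418 CPM). Their part in the lowest genes was not tested.

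Chemokines took the first places of this ranking. Ccl2, Ccl7, Ccl12 and Ccl8 encode related CC chemokines, several of which draw monocytes through CCR2, and lie in 1 cluster on chromosome 11 (chr11:82035577-82037452, chr11:82045712-82047525, chr11:82101845-82103399 and chr11:82115185-82116799). Because Ccl12 and Ccl8 are neighbours and behaved differently between the libraries, the 250 bases before the start of each are shown, with those of Cxcl13 on chromosome 5 as the other chemokine gene that differed. They are RefSeq reference sequence of GRCm38.p6, all on the plus strand, with matches to the TATA box, spelled TATAAA, and to the C/EBP motif TTGCNNAA on either strand in capitals.
Ccl8, chr11:82114935-82115184: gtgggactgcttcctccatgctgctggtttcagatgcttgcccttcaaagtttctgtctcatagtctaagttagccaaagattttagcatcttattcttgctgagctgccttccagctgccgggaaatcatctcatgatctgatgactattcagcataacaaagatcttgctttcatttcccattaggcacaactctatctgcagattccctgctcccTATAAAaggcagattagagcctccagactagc
Ccl12, chr11:82101595-82101844: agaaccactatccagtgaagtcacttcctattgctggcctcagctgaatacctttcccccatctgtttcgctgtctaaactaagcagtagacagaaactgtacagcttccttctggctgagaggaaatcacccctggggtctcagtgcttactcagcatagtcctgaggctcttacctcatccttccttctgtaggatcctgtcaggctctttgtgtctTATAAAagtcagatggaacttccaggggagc
Cxcl13, chr5:95956689-95956938: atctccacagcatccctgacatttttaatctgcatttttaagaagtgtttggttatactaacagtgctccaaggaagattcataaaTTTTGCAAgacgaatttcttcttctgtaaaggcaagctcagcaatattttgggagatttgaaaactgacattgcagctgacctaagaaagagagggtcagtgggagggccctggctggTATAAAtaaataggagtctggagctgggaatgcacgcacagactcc

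The windows of Ccl8 and Ccl12 were the same at 156 of 271 columns of a global alignment (57.6%), against 50.9% for Ccl8 and Cxcl13 and 51.2% for Ccl12 and Cxcl13. TATAAA began 32 bases before the Ccl8 start, 31 before the Ccl12 start and 46 before the Cxcl13 start, and was present in 12.4% of the 32851 windows of this length in the table. The letters TTCNNNGAA (STAT, in 7.02% of windows), TTGCNNAA (C/EBP, 9.56%), GAGGAAGT (PU.1, 2.44%) and TGCTGAC (MAF, 3.81%) were also searched on both strands. Of these the Ccl8 and Ccl12 windows held none, and the Cxcl13 window held TTGCNNAA on the minus strand, apart from its TATAAA. A match is a description and not a binding site.

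Ccl8 had 2690 UMIs in 33 of 45 marker-positive BLM members and 79 in 12 of 59 naive ones. The level over cells ran from 0 through a median of 989 to a highest value of 28635 CPM in BLM, and from 0 through a median of 0 to 3030 in naive. Summed, the level was 6746 CPM [6494, 7006] against 231 CPM [183, 288], a log2 ratio of 4.87 [4.54, 5.21]. With the cell of most UMIs left out of each library (496 and 22 UMIs), the ratio was 5.11 [4.73, 5.51]. The share of cells with a UMI was 73.3% [58.1, 85.4] in BLM and 20.3% [11, 32.8] in naive, and 57.4% and 11.4% with each cell thinned to 1000 UMIs. In B cells Ccl8 was at 6.28 CPM in BLM and had no UMI in naive, and marker-negative members had 12 UMIs in 7 of 137 BLM cells and none in 27 naive cells. The 12 naive cells with Ccl8 overlapped the BLM cells in level, and most naive cells lay at 0.

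Ccl2 did not follow Ccl8. It had 782 UMIs in 31 of 45 BLM cells and 804 in 42 of 59 naive cells, with medians of 617 and 956 and highest values of 16031 and 12786 CPM. The log2 ratio was -0.26 [-0.41, -0.12]. Over all members Ccl2 was lower in BLM by more (689 against 1650 CPM), which went with the lower share of marker-positive cells.

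Ccl7 had 667 UMIs in 28 BLM cells and 305 in 37 naive cells (1673 against 894 CPM, log2 ratio 0.90 [0.71, 1.10]). The shares of cells with a UMI were 62.2% and 62.7%. Ccl12 had 435 UMIs in 31 BLM cells and 321 in 26 naive cells (1091 against 940 CPM, 0.21 [0.00, 0.43]). Neither reached 2-fold.

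In BLM, 25 of the 33 Ccl8-positive cells also had a Ccl2 UMI, 24 a Ccl7 UMI and 29 a Ccl12 UMI, and 6 of the 45 cells had neither Ccl8 nor Ccl2. In naive, 8 of the 12 Ccl8-positive cells had a Ccl2 UMI, and 34 cells had Ccl2 without Ccl8.

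Cxcl13, the B cell chemokine, rested on few cells. It had 698 UMIs in 10 of 45 BLM cells and 46 in 9 of 59 naive cells (1750 against 135 CPM, log2 ratio 3.70 [3.27, 4.16]), and the shares of cells, 22.2% [11.2, 37.1] and 15.3% [7.22, 27], had overlapping intervals. The highest cell held 201 UMIs in BLM and 11 in naive, and without them the ratio was 3.65 [3.16, 4.19]. Of the 10 BLM cells 7 also had Ccl8.

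**Figure D3:**
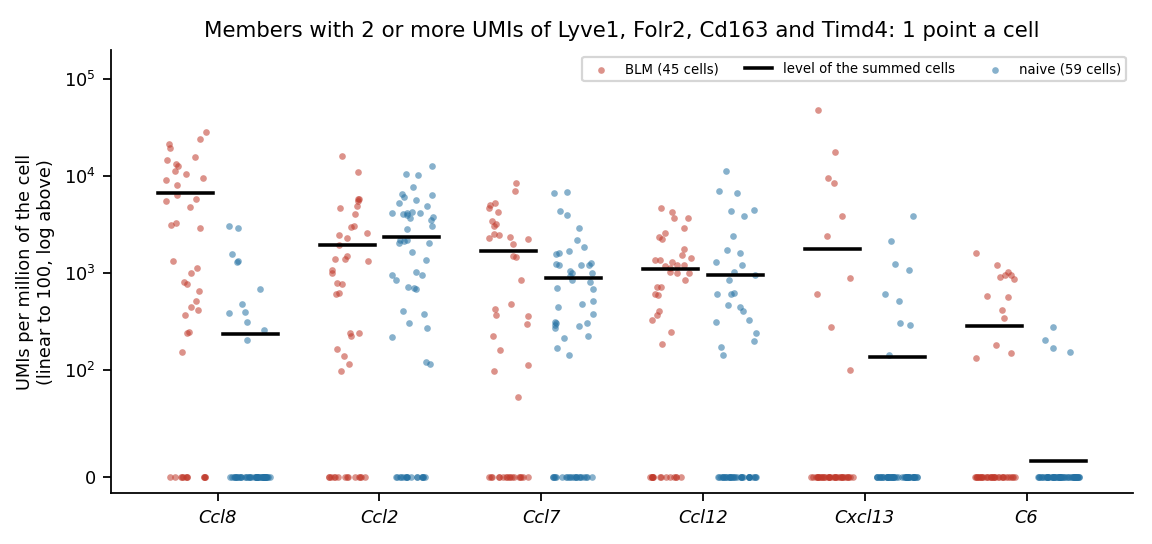
CPM of Ccl8, Ccl2, Ccl7, Ccl12, Cxcl13 and C6 in each marker-positive member (1 point a cell, linear to 100 and log above) in BLM (red, 45 cells) and naive (blue, 59 cells), with black lines for the level of the summed cells. Ccl8 is the chemokine with the widest gap between the summed levels (6746 against 231), while the points of Ccl2 cover nearly the same range in both libraries.

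Of the 18 chemokines listed, 16 had 20 or more UMIs in marker-positive members, 2 were 2-fold or more higher in BLM (Ccl8 and Cxcl13) and 2 lower (Cxcl9 and Cxcl10). The 66 naive UMIs of Cxcl9 lay in 2 members. Ccl6 (4940 against 2760 CPM) and the neutrophil chemokine Cxcl2 (5966 against 3932 CPM) were higher in BLM by less than 2-fold. The list's median log2 ratio was 0.35, against -0.05 over all ranked genes. Chemokine genes also differed between the marker-negative members, where 16 of 18 had 20 or more UMIs, 8 were 2-fold or more higher in BLM (Ccl12, Ccl24, Ccl3, Ccl6, Cxcl1, Cxcl2, Cxcl3 and Cxcl9) and 2 lower (Ccl7 and Cxcl13), with a median of 0.23. Cxcl2 was at 3498 against 1147 CPM there (1.61 [1.39, 1.84]). Of all ranked genes 4.62% were 2-fold or more higher in BLM and 6.79% lower in marker-positive members. In marker-negative members 11.9% were higher and 8.91% lower.

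Complement genes outside C1q were also unequal. C6, a component of the membrane attack complex that was not on the complement list, had 112 UMIs in 14 of 45 BLM cells and 5 in 4 of 59 naive cells (281 against 14.6 CPM, log2 ratio 4.26 [3.0, 5.91]). All 14 BLM cells with C6 also had Ccl8. C6 had no UMI in marker-negative members or in B cells of either library. C4b, a component of the classical pathway, had 702 UMIs in 35 BLM cells and 232 in 30 naive cells (1.37 [1.16, 1.59]), and Vsig4, a receptor for C3b fragments, 48 in 12 and 17 in 5 (1.27 [0.45, 2.16]). The receptors C3ar1 (-0.47 [-0.76, -0.18]) and C5ar1 (-0.87 [-1.12, -0.62]) were under 2-fold apart. Of the 12 listed genes 9 had 20 or more UMIs, 2 of them 2-fold or more higher and none lower. Among all ranked genes of marker-positive members 4.62% were higher and 6.79% lower.

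Several proteases of the lysosome were higher in BLM on both sides of the division. In marker-positive members, of 15 listed proteases and inhibitors, 12 had 20 or more UMIs, 6 were 2-fold or more higher in BLM (Ctsb, Ctsd, Ctsl, Ctss, Mmp12 and Mmp19) and 1 lower (Mmp9), and the median log2 ratio was 0.97. Cathepsin B was at 7977 against 3732 CPM (1.10 [1.0, 1.19]) with a UMI in all 45 and all 59 cells, and cathepsin S at 3263 against 1403 CPM (1.22 [1.07, 1.37]). In marker-negative members 13 had 20 or more UMIs, 5 were 2-fold or more higher (Ctsd, Ctsk, Ctsl, Ctss and Mmp14) and 1 lower (Mmp19), and the median was 0.11. Cathepsin S (Ctss) was at 6076 against 2095 CPM there (1.54 [1.37, 1.70]). Of all ranked genes 4.62% were 2-fold or more higher in BLM in marker-positive and 11.9% in marker-negative members. Among marker-positive members Mmp12, the macrophage elastase, had 70 UMIs in 7 BLM cells, 36 of them in 1 cell, and 4 in 2 naive cells. Mmp9, a gelatinase that neutrophils carry, had 16 UMIs in 5 BLM cells and 109 in 21 naive cells.

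Cytokine, heme and interferon genes gave single differences. Osm, the cytokine oncostatin M, had 538 UMIs in 34 BLM cells and 97 in 28 naive cells (2.25 [1.93, 2.57]), the only 1 of 12 listed growth factors that was 2-fold or more higher. Pdgfb was the only 1 of the 12 that was 2-fold or more lower. Hmox1, heme oxygenase, was at 1475 against 378 CPM (1.96 [1.69, 2.25]), with 277 of its 588 BLM UMIs in 1 cell. Ifi27l2a, an interferon-induced gene, was at 1149 against 422 CPM (1.45 [1.17, 1.73]). Il18bp, which neutralises IL-18, had 21 UMIs in 13 BLM cells and none in naive (at least 5.99-fold), beside Il18 itself at 37.6 against 76.2 CPM. Mgl2, a galactose lectin of alternatively activated macrophages, was lower (-1.5 [-1.76, -1.25]), whereas Retnla, a secreted product of the same state, was at 7850 against 8384 CPM (-0.10 [-0.17, -0.02]). Of the 12 listed genes of alternative activation 10 had 20 or more UMIs. Of these, 2 were 2-fold or more higher (Clec10a and Il4ra) and 2 lower (Ccl22 and Mgl2), with a median log2 ratio of 0.06. Among all ranked genes of marker-positive members 4.62% were higher and 6.79% lower.

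Some MHC class II genes were lower in BLM on both sides of the division. In marker-positive members, of 16 listed genes of antigen-presenting macrophages, 15 had 20 or more UMIs, 4 were 2-fold or more lower in BLM (H2-Aa, H2-Ab1, H2-Eb1 and H2-DMb2) and 1 higher (Itgax). H2-Ab1 was at 1460 against 3592 CPM (-1.30 [-1.44, -1.16]), and the invariant chain Cd74 at 2347 against 4605 CPM (-0.97 [-1.09, -0.85]). In marker-negative members 4 of 15 were 2-fold or more lower (Cd40, Cx3cr1, H2-DMb2 and H2-Eb1) and 1 higher (Cd80). H2-Ab1 was at 6722 against 11032 CPM there (-0.71 [-0.79, -0.64]). The medians of the list were -0.55 and -0.62. Of all ranked genes 6.79% were 2-fold or more lower in BLM in marker-positive and 8.91% in marker-negative members. The summed dendritic cell list was at 191 against 284 CPM in marker-positive and 152 against 1107 CPM in marker-negative members. Without the members that held 3 or more UMIs of the B cell or the dendritic cell list, a step also chosen after seeing the data, the ratio of H2-Ab1 was -1.09 [-1.26, -0.93] in marker-positive and -0.71 [-0.82, -0.61] in marker-negative members. That step left 38 BLM and 45 naive marker-positive members. Of the marker-negative ones it left 119 BLM and only 17 naive cells, with 10 naive cells taken out.

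Part of the immediate early genes were lower in BLM members of both kinds. Of the 16 genes of the list, which covers Fos, Jun and heat shock genes that also respond to tissue dissociation, 5 were 2-fold or more lower in marker-positive BLM members and none higher (median log2 ratio -0.82), where 6.79% of all ranked genes were lower. In marker-negative members 5 were lower and Ier3 was higher (median -0.71), where 8.91% of all ranked genes were lower. Jund, a subunit of AP-1, was at 863 against 2493 CPM in marker-positive and 569 against 1677 CPM in marker-negative members. In B cells Jund was at 1064 CPM in BLM and 1146 in naive. The part of the preparation in this difference was not tested.

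The 137 marker-negative BLM members were compared with only 27 naive ones, which held 150834 UMIs. Of 5676 ranked genes 675 were 2-fold or more higher in BLM (11.9%) and 506 lower (8.91%). The 6 highest were Clec4n, Thbs1, Pdpn, Vdr, C4b and Slc7a11, and the 6 lowest included Cd209a, Cxcl13, Nes, Cadm1 and Lyz1. The vitamin D receptor Vdr had 108 UMIs in 37 BLM cells and none in naive (at least 5.87-fold), and the cystine transporter Slc7a11 94 in 40 and none (at least 5.11-fold). Of the 104 naive UMIs of Cd209a, a lectin of monocyte-derived and type 2 dendritic cells, 59 came from 1 cell. The 2 sets differed in make-up, with a median C1q score of 0.276% in BLM and 0.577% in naive. All 4 of the 8 dendritic cell genes with 20 or more UMIs were 2-fold or more lower in BLM (Ccl22, Ccr7, Cd209a and Fscn1), with a median log2 ratio of -2.36. The part of these differences in the results that follow was not tested.

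Genes of classical monocytes were 2-fold or more higher in part in the marker-negative BLM members. Of 10 listed, all had 20 or more UMIs, 5 were 2-fold or more higher in BLM (Chil3, Fn1, Hp, Thbs1 and Vcan) and 1 lower (Plac8). Among all ranked genes of these members 11.9% were higher and 8.91% lower. Fibronectin (Fn1) had 4101 UMIs in 106 of 137 BLM cells and 165 in 6 of 27 naive cells (4433 against 1094 CPM, 2.02 [1.79, 2.25]), and thrombospondin 1 (Thbs1) 2095 in 96 and 36 in 10 (3.25 [2.77, 3.76]). Ccr2 itself was at 1395 against 1657 CPM (-0.25 [-0.45, -0.05]), and the monocyte marker Ly6c2 had 24 and 7 UMIs. Fn1 had a UMI in 77.4% of marker-negative and 77.8% of marker-positive BLM members and in 22.2% and 20.3% of the naive ones. With each cell thinned to 1000 UMIs the share in BLM was 70.6% and 39.8%, against 9.20% in B cells. The thinned share was 84.4% in the BLM cells that the limit on Spp1, Arg1 and Gpnmb had set aside. In BLM alveolar macrophages it was 72.7%. The 10 listed monocyte genes together were at 9559 CPM in marker-negative BLM members and 14000 CPM in BLM alveolar macrophages. In marker-positive members the Fn1 sum was 1359 against 826 CPM (0.72 [0.51, 0.93]), and 116 of the 282 naive UMIs lay in 1 cell.

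Some inflammatory and glycolytic genes were also higher in the marker-negative BLM members. Of the 12 listed inflammatory genes 11 had 20 or more UMIs, 3 were 2-fold or more higher in BLM (Il1a, Il6 and Ptgs2) and 1 lower (Il18), with a median log2 ratio of 0.21. Among all ranked genes of these members 11.9% were higher and 8.91% lower. Ptgs2, the inducible cyclooxygenase, was at 819 against 219 CPM (1.91 [1.40, 2.45]). In marker-positive members none was higher and Il18 was lower, with a median of -0.30. Whether the 2 sides differed in this was not tested. Il1b, which encodes interleukin-1 beta, was at 5130 against 2606 CPM in marker-negative members (0.98 [0.83, 1.13]) and at 1515 against 1576 CPM in marker-positive ones (-0.06 [-0.23, 0.11]). In B cells it was at 509 and 210 CPM. Of the 14 listed genes of glycolysis and hypoxia 12 had 20 or more UMIs in marker-negative members, 4 were 2-fold or more higher in BLM (Eno1, Hilpda, Ndrg1 and Tpi1) and none lower, with a median log2 ratio of 0.89 against 0.01 over all ranked genes. The glycolytic enzyme Eno1 was at 376 against 106 CPM (1.83 [1.11, 2.65]). In marker-positive members 1 of 10 was higher (Hilpda), with a median of 0.33.

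**Figure D4:**
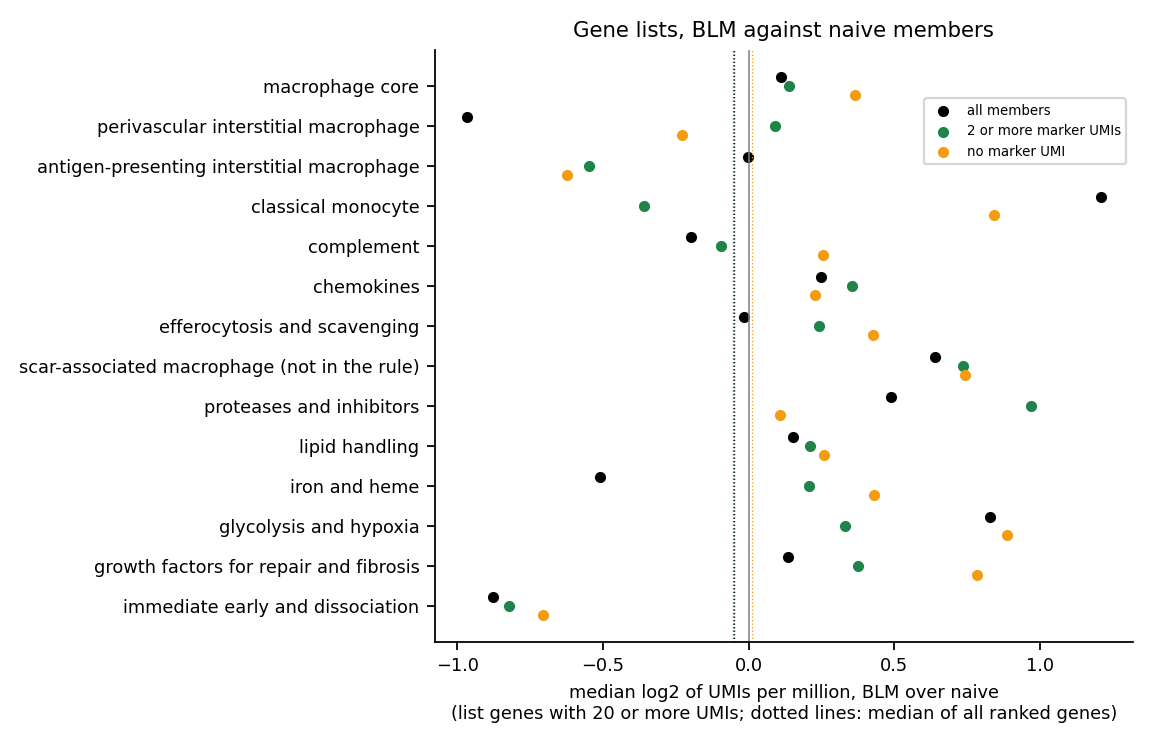
Median log2 ratio of CPM, BLM over naive, over the genes with 20 or more UMIs of each of 14 gene lists, for all members (black), marker-positive (green) and marker-negative members (orange), with dotted lines for the median of all ranked genes. The Lyve1-type list (labelled perivascular) holds the 4 marker genes and lies at -0.97 over all members and at 0.09 within marker-positive members, and the immediate early list is below 0 in all 3 sets.

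The members were next set against the C1q macrophages of the same BLM library that had met every other condition but carried 0.1% or more of Spp1, Arg1 and Gpnmb (307 cells, with a median of 10415 UMIs). Spp1, Arg1 and Gpnmb separated the groups by definition. Of 6986 ranked genes 244 were 2-fold or more higher in members (3.49%) and 208 lower (2.98%). The 6 highest were Chp2, Lyve1, Cp, Ccl7, Ccl8 and Cd163, and the 6 lowest Cspg4, Zranb3, Slc36a2, Ctsk, Slc6a8 and Syngr1.

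The C1q genes themselves were at like levels, with log2 ratios between -0.09 for C1qc and 0.08 for C1qa. These genes had admitted both groups by the same limits, so their levels are given as description only. Ccl8 was at 1940 CPM in members and 325 in the Spp1 group (2.58 [2.47, 2.68]), and Ccl7 at 521 against 69.9 (2.90 [2.68, 3.12]). The ferroxidase ceruloplasmin (Cp) had 125 UMIs in 38 members and 26 in 15 cells of the Spp1 group. The Lyve1-type list, with its 4 marker genes, had 11 of 16 genes 2-fold or more higher in members and none lower, and the antigen-presenting list 12 of 16 higher and none lower, including H2-Ab1 at 5091 against 1805 CPM (1.5 [1.45, 1.55]). B cells and dendritic cells also carry MHC class II, and all 4 B cell genes (Cd79a, Cd79b, Ebf1 and Ms4a1) and all 5 dendritic cell genes (Ccl22, Ccr7, Cd209a, Fscn1 and Zbtb46) with 20 or more UMIs were 2-fold or more higher in members too. Without the 25 members and 11 cells of the Spp1 group that held 3 or more UMIs of either list, 12 of 16 antigen-presenting genes were again higher, and H2-Ab1 was at 4992 against 1815 CPM (1.46 [1.41, 1.51]).

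On the other side, the collagen-degrading protease cathepsin K (Ctsk) had 59 UMIs in 25 members and 1026 in 151 cells of the Spp1 group (42.3 against 320 CPM, -2.92 [-3.32, -2.54]). The proteoglycan Cspg4 had 2 UMIs against 210, and the amino acid transporter Slc36a2 5 against 193. Of the 12 scar-associated macrophage genes outside the definition 9 were 2-fold or more lower in members and none higher, among them Trem2 (217 against 513 CPM), Fabp5 (402 against 1604) and Cd9 (481 against 1401). Apoe was at 2914 against 6021 CPM (-1.05 [-1.10, -1.0]). Marker-positive cells made up 18.6% [14.4, 23.4] of the Spp1 group and, thinned to 1000 UMIs, 3.52%, against 15.2% of members.

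In the naive library, where 1 C1q cell exceeded the Spp1, Arg1 and Gpnmb limit, the members were set against 740 alveolar macrophages. Of 7454 ranked genes 861 were 2-fold or more higher in members (11.6%) and 1305 lower (17.5%). With ratios centred on the median gene, which lay at -0.21, the counts were 1073 and 1004. The 6 highest were Cxcl13, Mmp12, Ccl12, Vcam1, Stab1 and Retnla. Retnla was at 11238 CPM in members and 173 in alveolar macrophages (6.02 [5.93, 6.11]), and Stab1, a scavenger receptor of sinusoidal endothelium and macrophages, at 581 against 6.94 (6.39 [5.94, 6.86]). Vcam1, an adhesion molecule for leukocytes, had 99 UMIs in 24 of 93 members and 11 in 10 of 740 alveolar macrophages.

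The 6 lowest were Fabp1, Ctsk, Angptl4, Chil3, Mcoln3 and F7. Chil3, an abundant product of alveolar macrophages, was at 570 CPM in members and 10805 in alveolar macrophages (-4.25 [-4.41, -4.08]), and the fatty acid carrier Fabp1 had 2 UMIs against 2473. All 8 alveolar genes outside the definition were 2-fold or more lower in members. Of 18 chemokines 15 were 2-fold or more higher in members and 1 lower, and of 13 genes of lipid handling 3 were higher and 8 lower. Ctsk and F7, 2 of the 6 lowest, were also below the BLM alveolar macrophages in BLM members (42.3 against 892 CPM and 155 against 566 CPM).

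**Figure D5:**
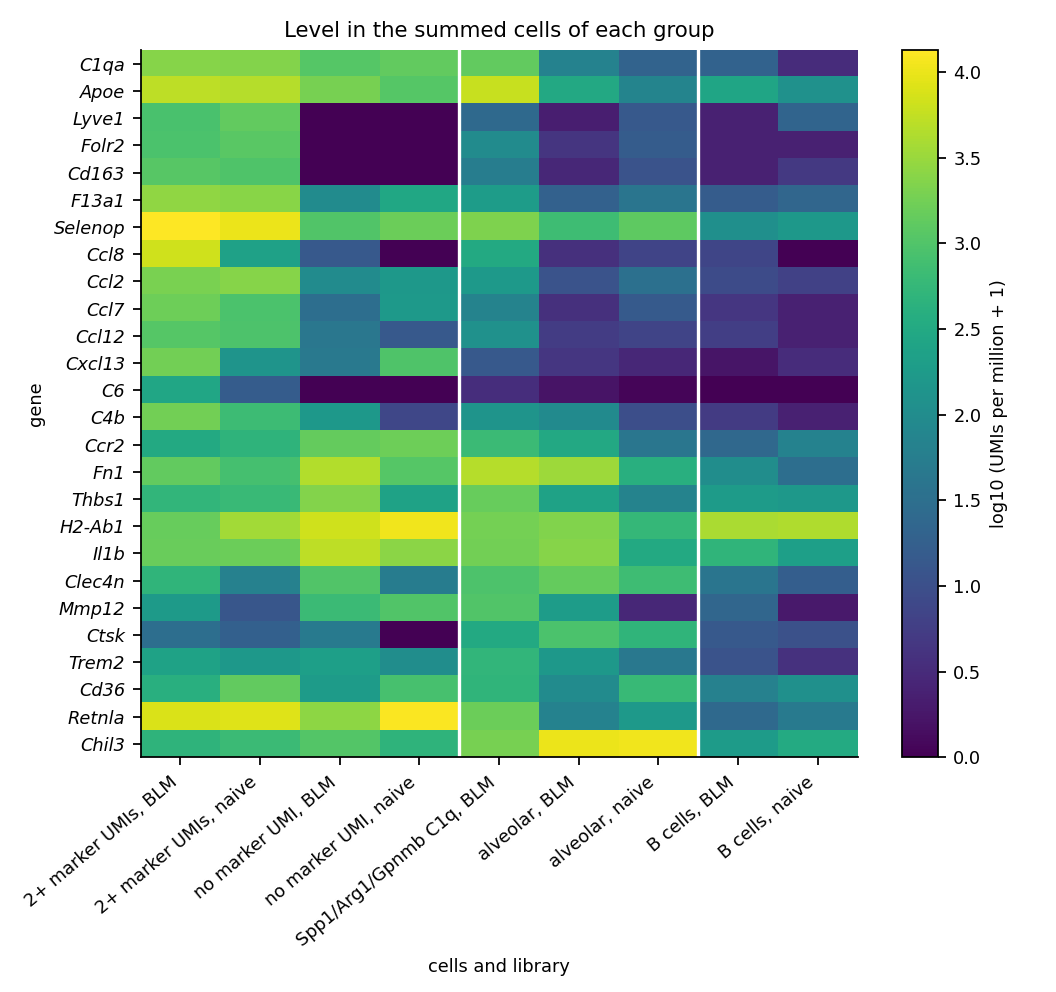
Level in the summed cells of each group, as log10 of CPM plus 1, for 26 genes in rows and for marker-positive (2+ marker UMIs) and marker-negative (no marker UMI) members, Spp1/Arg1/Gpnmb C1q macrophages, alveolar macrophages and B cells in columns. Ccl8 is brightest in the marker-positive BLM members (6746 CPM), and Chil3 in the alveolar macrophages of both libraries. Lyve1, Folr2 and Cd163 are at 0 in the marker-negative columns by definition.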

How the data were processed

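CD45+ lung cells of 1 BLM and 1 naive library, each a pool of 3 mice, were analysed. Per the file headers, the deposited counts are UMI counts per cell and gene, corrected for UMI errors by the authors' run of the BD Rhapsody WTA analysis pipeline version 1.8 on GRCm38 with GENCODE vM19. The libraries held 22490782 and 18019004 UMIs in 4714 and 4062 barcodes, with medians of 2380 and 2701.5 UMIs. The libraries shared 22 barcodes, 1 of them a BLM member's.

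A gene absent from a table was set to 0. UMIs were summed over the cells of a group and given for every 1000000 UMIs of those cells (CPM). Ratios carry the exact conditional interval, levels the Poisson interval and shares the Clopper-Pearson interval, all at 95% and for counting error only, since PCR and pooled mice add to it. Genes were named by the interval end nearer 0, 10 a direction for BLM against naive and 6 otherwise, with a level in B cells under 25% of the higher side. From each gene list, members with the most UMIs or the largest ratio were also named. Other list genes printed, such as Ly6c2 and Il18, were chosen after their values were seen. A few genes that the rule or the lists hold are not reported here. The members and the gene lists were chosen with earlier results of these data known. Thinning used the exact hypergeometric mean, and cells under 1000 UMIs (22 BLM members, 1 naive) were left out of it. The automatic Scrublet call marked 0.177% of BLM and 1.55% of naive cells, so it was not used. Barcodes with the highest 3% of Scrublet scores were kept in the results and left out as an alternative, which removed 5 BLM and 10 naive members. Code was tested on simulated data. Python 3.11.15, SciPy 1.17.1, Scanpy 1.11.5, Biopython 1.88, R 4.3.3 and edgeR 4.0.16 (TMM factors only) were used. Promoter sequences and gene positions are from RefSeq, GRCm38.p6.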

Additional observations from a re-analysis of the deposited data

Results flagged for a closer look

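Cxcl13 had opposite ratios of BLM to naive on the 2 sides of the division, with a log2 ratio of 3.70 in marker-positive and -4.42 in marker-negative members. Both ratios were beyond 2-fold over their whole counting intervals, and the difference between them was not tested. In marker-negative members the 147 naive UMIs lay in 3 of 27 cells, 121 of them in 1 cell, and the 42 BLM UMIs in 5 of 137 cells. Without the highest cell of each library the ratio there was -3.57.

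The neutrophil genes S100a8, S100a9 and Retnlg also went opposite ways, without a test of the difference. The log2 ratios in marker-positive and marker-negative members were -3.11 and 3.07 for S100a8, -2.94 and 2.12 for S100a9, and -2.31 and 3.16 for Retnlg. In marker-positive naive members 1 cell held 53 of 111 S100a8 UMIs, 80 of 145 S100a9 UMIs and 77 of 85 Retnlg UMIs. B cells had S100a8 at 216 CPM in BLM and 141 in naive. Over all 6 listed neutrophil genes the summed level was 211 CPM in marker-positive and 784 in marker-negative BLM members, and 1418 and 232 in naive. The part of neutrophil RNA in these values was not tested.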

How the results depend on the processing

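No paired analysis was possible because each group held 1 library. A C1q score of 0.5% or more gave member shares of 1.72% in BLM and 1.83% in naive, a marker-positive share of 55.1% in BLM, and, against the Spp1 group, 451 genes higher and 352 lower. Without members that carried genes of other lineages the member shares were 3.54% and 1.76%, and 579 genes were higher in BLM than naive members. An Spp1, Arg1 and Gpnmb limit of 0.05% gave a BLM share of 3.49%. Thinning to 1000 UMIs gave marker-positive shares of 15.2% and 44.6%. TMM scaling gave 344 genes lower in BLM than naive members. Without a filter beyond 1 UMI the counts were 2986 higher and 3141 lower for BLM against naive members, 2868 and 3422 against the Spp1 group, and 3235 and 7426 against alveolar macrophages. The mean over cells of each cell's CPM gave 422 genes higher against the Spp1 group. Chosen after the data had been seen, the marker-positive members alone gave 226 higher and 332 lower, and the marker-negative members alone 675 higher.

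For single genes, 1131 of 1430 values under an alternative lay within the counting interval of the value reported, and 287 lay outside it. Another 12 changed direction. Of the 1131, 119 came from leaving out the filters beyond 1 UMI, which changes no ratio and so could not move them. A change of direction was counted only for ratios that had been 2-fold or more. Smaller ratios that changed direction lie in the other counts. Of the log2 ratios of BLM over naive members, Cd209a (0.14) and Ifit2 (-0.70) changed direction at a C1q score of 0.5%, and Ifit3 (1.91) without other lineages. Among marker-positive members alone Thbs1 (-0.31), Cd209a (1.03), Il1b (-0.057) and Ifit2 (-0.22) did, and among marker-negative members alone Pglyrp1 (0.046). With the mean over cells, Pglyrp1 (0.81), Cd79b (0.051), Pax5 (0.87) and Ifit3 (0.19) did. The cause was not tested. The number of cells limits genes found in few of them, such as Cxcl13 and C6.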
